A study of Homo sapiens with 14 samples.

Results

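The regions described here are stretches of the human genome that carried acetylation of lysine 27 of histone H3 (H3K27ac) in TC-32, an established Ewing sarcoma cell line whose driver is the fusion transcription factor EWSR1::FLI1. They were taken from the peak lists of 2 replicate CUT&RUN libraries. Overlapping rows of a list were merged, and a region was kept where it shared at least 1 base with a region of the other replicate. This left 6028 shared regions, built from 6394 of 10219 regions of replicate 1 (62.6%) and 6702 of 17366 regions of replicate 2 (38.6%), while 20517 regions were found in either replicate. All 10 lists of the series together held 267530 regions. All positions are on hg38, chromosomes 1 to 22 and X.

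In CUT&RUN a nuclease tethered to an antibody cuts free the chromatin it has bound, and the study used it to place the fusion protein among active and repressed chromatin. All groups were wild-type, untreated TC-32 cells of this single line, in sets lettered A and B with no statement of how they differ. H3K27ac was mapped in set A with 2 libraries, and FLI1, the antibody target that stands for the fusion, with 2 libraries in each set. The repressive marks H3K9me3 and H3K27me3 have 2 libraries each in set B, and each set had 2 libraries with non-specific IgG that served as controls for peak calling.

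H3K27ac is placed by the acetyltransferases p300 and CBP. It marks the nucleosomes beside active promoters and active enhancers, and bromodomain proteins bind acetylated histones. It is absent from the same lysine when Polycomb has methylated it, because the residue carries either an acetyl or a methyl group. In Ewing sarcoma cells the fusion is known to bring acetylation to GGAA repeats far from genes.

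The sequences below lie under the most enriched regions and show what kinds of DNA the mark covered. Regions were ranked by the authors' deposited fold over IgG at the summit, as the mean of the percentiles in both lists, and the 200 bases round the replicate 1 summit are given on the plus strand. Windows that touch an exon of a protein-coding gene were passed over, which removed those at EIF3B, NVL and HOXC6. Capitals mark matches to any of 12 short motifs that were searched on both strands. INO80D encodes a subunit of the INO80 chromatin remodeller, LMNA the nuclear lamins A and C, and ZMYND8 a reader of acetylated histones. The first 3 windows lie in regions classed as promoters (chr2:206086720-206086919, chr1:156122978-156123177 and chr20:47352295-47352494). The label belongs to the whole region, which comes within 1 kb of a coding transcript start, and not to the printed bases. At LMNA and ZMYND8 these lie inside the gene, whose 5' end is at chr1:156082573 and chr20:47356889.
INO80D promoter: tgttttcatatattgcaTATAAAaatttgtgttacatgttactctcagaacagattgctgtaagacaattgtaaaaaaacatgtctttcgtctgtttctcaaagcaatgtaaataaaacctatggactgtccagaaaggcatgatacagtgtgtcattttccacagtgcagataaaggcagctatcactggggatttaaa
LMNA promoter: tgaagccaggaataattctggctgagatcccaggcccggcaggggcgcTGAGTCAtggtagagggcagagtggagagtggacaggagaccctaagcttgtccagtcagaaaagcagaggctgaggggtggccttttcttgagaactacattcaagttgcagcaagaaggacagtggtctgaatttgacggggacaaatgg
ZMYND8 promoter: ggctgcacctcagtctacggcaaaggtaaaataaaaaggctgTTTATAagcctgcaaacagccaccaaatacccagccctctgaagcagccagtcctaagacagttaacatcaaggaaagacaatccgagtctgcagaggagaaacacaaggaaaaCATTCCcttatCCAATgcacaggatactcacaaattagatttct

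The capitals are a TATA box (TATAAA) at INO80D and an AP-1 site (TGANTCA, here TGAGTCA) at LMNA. At ZMYND8 they are a TATA box, a TEAD site (GGAATG) and a CCAAT box (CCAAT). These windows held 34.0%, 53.5% and 44% GC, with 1, 3 and 2 CG pairs.

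The 3 most enriched distal windows lie in introns of KIRREL1, a cell adhesion protein of the immunoglobulin family (chr1:158009668-158009867), JAM3, a junctional adhesion molecule (chr11:134120197-134120396), and HSPA12A, a distant member of the HSP70 family (chr10:116840986-116841185). They are shown as the strongest acetylation away from starts.
KIRREL1 intron: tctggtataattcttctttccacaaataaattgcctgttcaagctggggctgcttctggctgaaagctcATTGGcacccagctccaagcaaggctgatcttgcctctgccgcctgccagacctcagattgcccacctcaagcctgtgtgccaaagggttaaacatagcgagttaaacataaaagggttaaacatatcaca
JAM3 intron: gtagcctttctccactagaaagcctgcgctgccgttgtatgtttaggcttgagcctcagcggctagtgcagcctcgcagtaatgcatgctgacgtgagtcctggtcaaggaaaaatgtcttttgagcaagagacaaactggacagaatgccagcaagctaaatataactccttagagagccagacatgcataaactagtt
HSPA12A intron: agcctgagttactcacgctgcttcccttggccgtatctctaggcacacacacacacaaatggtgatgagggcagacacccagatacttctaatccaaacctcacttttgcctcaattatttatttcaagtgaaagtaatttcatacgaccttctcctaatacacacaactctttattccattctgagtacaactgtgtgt

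The KIRREL1 window holds a CCAAT box, and the other two hold none of the 12 motifs. Deposited fold at these regions was 9.15 and 12.2 in replicates 1 and 2 at KIRREL1. It was 9.26 and 10.8 at JAM3, and 9.0 and 8.95 at HSPA12A. No FLI1 library had a region over the KIRREL1 or the JAM3 region.

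The 4 further windows carry the motifs that the later results turn on, and they were chosen after their values were seen. The 200 bases before the canonical start of MEIS1, a homeobox transcription factor (chr2:66434925-66435124, plus strand), and of COX8A, a subunit of cytochrome c oxidase (chr11:63974420-63974619, plus strand), hold an ETS site, CCGGAAGT, in reverse orientation. Capitals mark only this site, which begins 16 and 19 bases before the start.
MEIS1 promoter: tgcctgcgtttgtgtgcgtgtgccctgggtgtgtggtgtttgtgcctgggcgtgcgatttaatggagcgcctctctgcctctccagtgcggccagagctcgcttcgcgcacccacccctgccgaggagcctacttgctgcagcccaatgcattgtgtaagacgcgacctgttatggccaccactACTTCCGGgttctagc
COX8A promoter: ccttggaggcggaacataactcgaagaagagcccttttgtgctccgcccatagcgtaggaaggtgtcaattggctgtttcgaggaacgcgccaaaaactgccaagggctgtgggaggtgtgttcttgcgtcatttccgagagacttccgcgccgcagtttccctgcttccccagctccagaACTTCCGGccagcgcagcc

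A pair of distal windows hold a match to the AP-1 search pattern TGANTCA, in capitals, where N is any base. The nearest coding starts to their regions are those of STK4, a kinase of the Hippo pathway (chr20:44990638-44990837, plus strand), and NRDC, a metalloendopeptidase (chr1:51838001-51838200, plus strand). The match is TGATTCA at STK4 and TGAATCA at NRDC.
STK4 distal region: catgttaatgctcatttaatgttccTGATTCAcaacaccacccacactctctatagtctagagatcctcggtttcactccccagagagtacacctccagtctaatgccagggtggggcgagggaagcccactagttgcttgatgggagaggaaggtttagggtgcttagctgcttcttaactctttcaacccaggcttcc
NRDC distal region: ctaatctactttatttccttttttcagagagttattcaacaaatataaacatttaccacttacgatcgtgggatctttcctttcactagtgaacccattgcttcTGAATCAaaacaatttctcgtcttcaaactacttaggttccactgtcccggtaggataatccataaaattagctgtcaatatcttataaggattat

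Fold at the STK4 region was 7.45 and 8.20 and all 4 FLI1 libraries had a region there. At the NRDC region it was 6.38 and 7.61, with FLI1 in 2 libraries.

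The lists are shallow, and this bounds every count that follows. The lists give no read totals. The fold and p of each peak could be solved for whole fragments, and the median summit rested on 17 fragments in replicate 1 (10th to 90th percentile 14 to 23) and on 15 in replicate 2 (12 to 21). Median fold was 4.97 and 4.84, and the highest 11.4 and 26.5. A region or gene that is missing from a list was not detected at this depth.

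Replicates shared their strong regions far more often than their weak ones. In replicate 1, 54.0% of the regions in the lowest quintile of fold were found in replicate 2, against 80.3% in the highest quintile. In replicate 2 the shares were 27.5% and 63.3%. Median fold of kept regions was 5.12 and 5.24, against 4.73 in both lists for regions the other replicate lacked. Among shared regions, log2 fold in one replicate was weakly related to that in the other (Pearson r 0.27, Spearman rho 0.23, n = 6028 regions) and log2 width more closely (r 0.53, rho 0.48). These regions share the same cells and control set and were all cut at the same threshold, so the coefficients are descriptions. The ranking of single regions by fold is therefore imprecise. The least overlapping members had under 50 bases in both lists (190 regions), and 4864 had at least 200. Just outside the rule, 172 and 228 regions had no overlap but lay within 50 bases of a region of the other replicate.

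Acetylated regions gathered at gene starts. The shared regions covered 6.02 Mb, which is 0.207% of the 2911 Mb of the genome without gaps, and 2.91 Mb lay in both lists. Windows of 1 kb either side of protein-coding transcript starts make up 2.46% of the genome and held 32.2% of the acetylated bases. Of the 6028 regions, 2581 (42.8%) touched such a window and are called promoter regions. A further 323 (5.36%) touched only the start of another kind of gene, and 712 (11.8%) lay within 5 kb of a coding start. The remaining 2412 (40%) were distal, over 5 kb from any coding start, in a class that takes up 90.1% of the genome before other starts are removed. Among regions of either replicate the promoter share was 32.6% and the distal share 47.9%, so the less reproducible regions lay more often away from starts.

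Distal regions sat mostly in introns. The midpoint lay in an intron of a protein-coding gene in 67.7%, in an exon in 2.32% and outside coding genes in 30%, while 44.7% of the genome is in coding gene bodies. Regions 1 to 5 kb from a start had 82.6% of midpoints in introns.

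Widths differed little between promoters and distal sites. The median width of kept regions was 524 bp in replicate 1 and 568 bp in replicate 2. Promoter regions had medians of 570 and 592 bp, and distal regions 500 and 556 bp. The distal median of replicate 2 lay close to the promoter median of replicate 1, so the spread between replicates was nearly as large as the class difference. Median fold was 5.30 and 5.47 at promoters and 5.04 and 5.18 at distal regions. The widest single kept region measured 7879 bp in replicate 1 and 6393 bp in replicate 2. A shared region can join several regions of a list, and its width in a replicate is given as their sum.

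**Figure D1:**
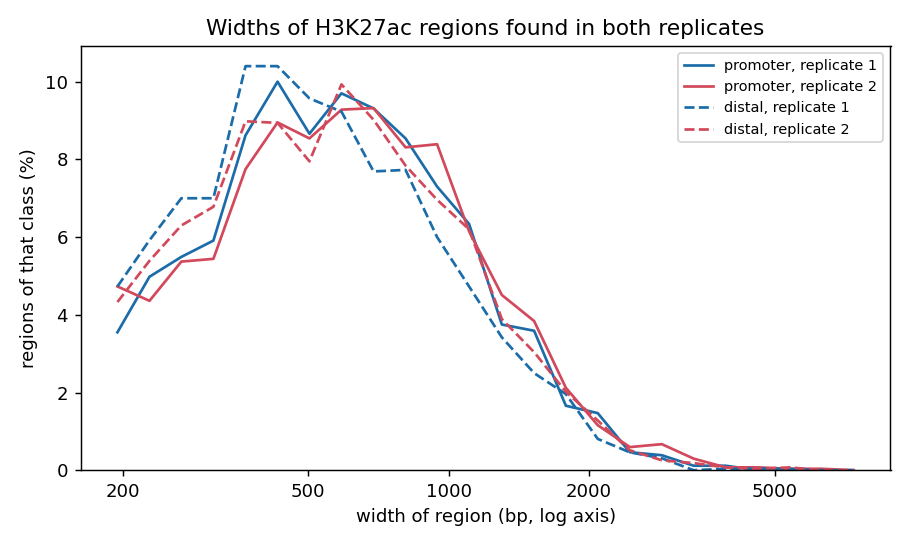
Widths of kept H3K27ac regions (log axis, bp) against the percent of regions of that class, for promoter regions (solid) and distal regions (dashed) in replicate 1 (blue) and replicate 2 (red). The 4 curves overlap over most of their range, with medians from 500 bp (distal, replicate 1) to 592 bp (promoter, replicate 2).

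Round acetylated starts, the mark lay downstream of the start more than upstream. Of the 2919 acetylated starts defined below, 14.1% and 14.0% were covered at the start base of the canonical transcript in replicates 1 and 2. At 250 bases downstream 29.4% were covered in both replicates, and at 750 bases 32.8% and 36.3%. At 400 bases upstream the shares were 15.8% and 17.7%. Coverage fell to 6.30% and 6.82% at 2000 bases downstream. That regions lie within 1 kb is set by the rule that chose the starts, and a region at an internal start enters downstream. The profile was therefore repeated, after the data were seen, for the 798 genes whose coding starts all lie within 100 bases of the canonical start. There 39.5% and 38.7% were covered at 250 bases downstream and 19.9% and 20.7% at 250 bases upstream. Over all 2919 starts the curves dipped to 13.0% and 12.8% at 50 bases upstream, where active promoters are known to lack a nucleosome.

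**Figure D2:**
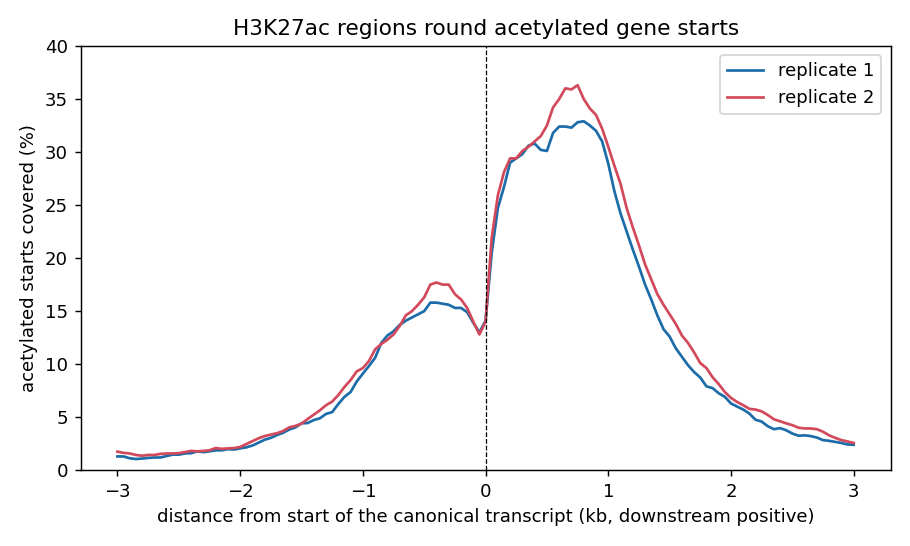
Percent of the 2919 acetylated protein-coding starts whose base at each distance from the canonical transcript start lay in an H3K27ac region, for replicate 1 (blue) and replicate 2 (red). Both curves dip at the start and are highest downstream, at 32.9% 800 bases from it in replicate 1 and 36.3% at 750 bases in replicate 2.

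Acetylation was found at the starts of a minority of coding genes. A gene start was counted as acetylated where both lists had a region within 1 kb of any of its protein-coding transcript starts. This held for 2919 of 19970 protein-coding genes (14.6%), which is the background for the gene groups that follow. Replicate 1 alone gave 3630 (18.2%), replicate 2 alone 4820 (24.1%) and either replicate 5531 (27.7%). With peaks of a −log10 q of at least 5 only, 679 genes remained (3.40%). Kept regions in the gene body or 5 kb either side were found in both replicates for 4325 genes (21.7%). The regions of both lists at a counted start need not overlap each other or lie at the same transcript start. A gene counted as acetylated can therefore lack any kept region.

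Other classes of gene had fewer. Among long non-coding RNA genes 824 of 18756 starts were acetylated (4.39%). Where no coding start lay within 2 kb the count was 249 of 14438 (1.72%), so most acetylated lncRNA starts were beside a coding start. Processed pseudogenes, which are reverse-transcribed copies without a promoter of their own, had 24 of 10514 (0.228%), and unprocessed pseudogenes 25 of 3325 (0.752%). Small RNA genes ranged between 0.584% of snRNA genes (11 of 1884) and 2.61% of miRNA genes (49 of 1877), with snoRNA genes at 1.28% (12 of 939) and miscellaneous RNA genes at 1.23% (27 of 2204). Away from coding starts the shares fell to 0.773% for miRNA genes (12 of 1553) and 0.372% for snoRNA genes (3 of 807).

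Genes that every cell uses were acetylated most often. Molecular chaperones and heat shock genes led the lists, with 16 of 25 starts (64.0%; 16 in replicate 1 and 18 in replicate 2) against 14.6% of all coding genes. They included HSPA8, the constitutive HSP70, with 2084 and 2121 acetylated bases in its body and 5 kb either side in replicates 1 and 2. HSF1, the transcription factor of the heat shock response, had 1349 and 1304, and the chaperonin subunits TCP1 and CCT6A had 1174 and 1228, and 876 and 1379. The median member had 344 bases, against 0 over all coding genes. Kept regions in the body or 5 kb either side were found for 14 of the 25 (56.0%), against 21.7% of all coding genes. DNAJB1, DNAJB6, HSPA9 and HSPE1 counted among the acetylated starts but had 0 kept bases in both replicates. HSPA1B, a stress-induced HSP70, had 638 and 1128 bases in its window but no region at its start.

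Proteasome subunits had 20 of 39 starts acetylated (51.3%). PSMA2, a subunit of the core ring, had 1413 and 2446 bases, shared with MRPL32, whose start is beside it. The ATPase PSMC2 had 1591 and 1965 and the regulatory subunit PSMD1 had 1762 and 1295. Replicates 1 and 2 each found 23 of the 39.

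Mitochondrial genes followed. Of 77 mitochondrial ribosomal proteins, 35 were acetylated (45.5%), led by MRPL13 (2045 and 3184 bases) and MRPL22 (2339 and 1866). Of 86 nuclear subunits of the respiratory chain, 33 were (38.4%). UQCRH of complex III had 4381 and 4201 bases, and SDHC of complex II had 2313 and 3107. COX8A, whose ETS site is printed above, had 1624 and 1024. UQCRH and SDHC are on chromosome 1, whose starts were acetylated most often (below).

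Splicing, translation, replication and cell cycle genes stood lower but above the background share. Splicing factors had 22 of 59 (37.3%), with SRSF11 (2747 and 3297 bases) and the hnRNPs HNRNPUL2 and HNRNPU in front. Translation initiation factors had 16 of 55 (29.1%), including the eIF3 scaffold EIF3A (1636 and 1805). Aminoacyl-tRNA synthetases had 6 of 18 (33.3%), among them YARS1 (1652 and 1746). Replication genes had 10 of 31 (32.3%), among them the origin recognition subunits ORC3 (1811 and 2178), ORC5 (1637 and 1769) and ORC1 (1177 and 1082). Cyclins and their kinases had 8 of 23 (34.8%), with the transcription kinases CDK12 (1351 and 1708) and CDK13 (1702 and 577) ahead of the mitotic kinase CDK1 (358 and 744).

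Cytosolic ribosomal proteins were acetylated in 20 of 84 cases (23.8%), a lower share than their mitochondrial counterparts. RPS12 had 1428 and 1070 bases and RPS27L 1351 and 1113. The replicates found 28 and 40 of the 84, and 48 in either. Glycolysis had 6 of 18 (33.3%), including the glucose transporter SLC2A1 (1481 and 1954) and ENO1 (1011 and 1297). Cholesterol synthesis had 4 of 24 (16.7%), close to the background, with its regulator SREBF1 at 1790 and 1681.

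Chromatin genes were mixed. BAF remodelling subunits had 8 of 25 (32.0%), with ARID1A at 1696 and 2985 bases and ARID2 at 1714 and 2491. Writers, erasers and readers of histone acetylation had 7 of 31 (22.6%). In that list the deacetylase HDAC4 stood far ahead with 7657 and 10630 bases, followed by HDAC5 (1807 and 1414) and the bromodomain protein BRD3 (1109 and 1449). Polycomb subunits had 5 of 28 (17.9%), led by PHC2 (5352 and 4414) and the methyltransferase EZH2 (1991 and 2000).

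Developmental and tissue genes were near or under the background. Of 39 HOX genes 7 starts were acetylated (17.9%), 3 in the HOXC cluster, 3 in HOXB and HOXD11 alone in HOXD (636 and 236 bases). HOXC6 had 6019 and 7535 bases, HOXB13 5831 and 6548, HOXC9 3101 and 4186 and HOXC11 2129 and 1836. Among 58 other homeobox genes 8 were (13.8%), and ZFHX3 (15998 and 16709), ZEB2 (9254 and 10175) and MEIS1 (4747 and 6854) held regions at their starts in both replicates. ZFHX3 and ZEB2 exceeded every HOX gene in acetylated bases. MEIS1 encodes a partner of HOX proteins on DNA. Zinc finger genes had 69 of 508 (13.6%). Replication-dependent histone genes had 4 of 69 (5.80%), and regions in the body or flanks for 14 (20.3%), near the 21.7% of all coding genes.

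Immediate early genes, which respond within minutes to growth signals, had 2 of 28 acetylated starts (7.14%), FOSL2 (200 and 1076 bases) and JUND (370 and 543). FLI1 regions in all 4 libraries lay at 23 of these 28 starts (82.1%), against 7521 of all 19970 coding starts (37.7%). Chaperones had a similar FLI1 count, 23 of 25 (92.0%), with 16 acetylated. Alike FLI1 counts thus stood beside 2 and 16 acetylated starts, a difference that was not tested.

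Genes of other tissues were almost without the mark at their starts. No start of 415 olfactory receptor genes or 96 potassium channel genes was acetylated in both replicates, and 1 and 3 were in replicate 2 alone. Of 149 keratin and keratin-associated genes the 2 were KRT8 and KRT18, simple epithelial keratins that lie side by side and share 1905 and 2209 bases. They were also the 2 acetylated starts among 17 epithelial markers (11.8%). EPCAM and CDH1 had no kept region, and no region of either replicate at a start. The lists for skeletal muscle (16 genes), endothelium (13), T and B cells (16), liver (16) and erythroid cells (12) had no kept region. That holds for the body and 5 kb either side, and neither replicate had a region at their starts. Regions of a single replicate away from starts were not counted. Myeloid markers had 0 of 16 starts, and kept body or flank regions for 1 gene (6.25%).

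Neuronal markers had 1 of 22 (4.55%), SYT1, a synaptic vesicle calcium sensor (1594 and 1844 bases). Neural crest and glial markers had 1 of 18 (5.56%), TFAP2A, a transcription factor of the early crest (924 and 1093). Body or flank regions were found for 5 of the 18 (27.8%), against 21.7% of all coding genes. ERBB3 (1247 and 1438) and SOX10 (724 and 961) had regions away from their starts. Fibroblast and bone markers had 1 of 20 (5.00%), PDGFRB, with 243 and 314 bases. Body or flank regions were found for 5 of the 20 (25%, against 21.7% of all coding genes), with more bases at ACTA2 (867 and 726), COL3A1 (346 and 1105) and TWIST2 (371 and 724).

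Ewing sarcoma targets and markers gave 8 of 45 acetylated starts (17.8%), near the background of 14.6%. Regions in the body or 5 kb either side were found for 16 of 45 (35.6%), against 21.7% of all coding genes. JAK1 had 10596 and 11454 bases, SOX6, a transcription factor, 8220 and 8384, the kinase PRKCB 5368 and 5666, and EZH2 the values above. SOX6 and PRKCB had no start acetylated in both replicates, and their regions lay inside the genes. At 25 of the 45 there was no kept region, and no region of either replicate at a start. Among them were CD99, the surface antigen used in diagnosis, and the fusion targets NR0B1, NKX2-2, CCND1 and GLI1. Regions of a single replicate away from their starts were not counted. FLI1 was at 29 of these 45 starts in all 4 libraries (64.4%), against 37.7% of all coding genes. The share was 54.7% for respiratory chain subunits and 78.2% for translation initiation factors. At the depth of these lists, missing regions at these markers do not show that they lack acetylation.

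**Figure D3:**
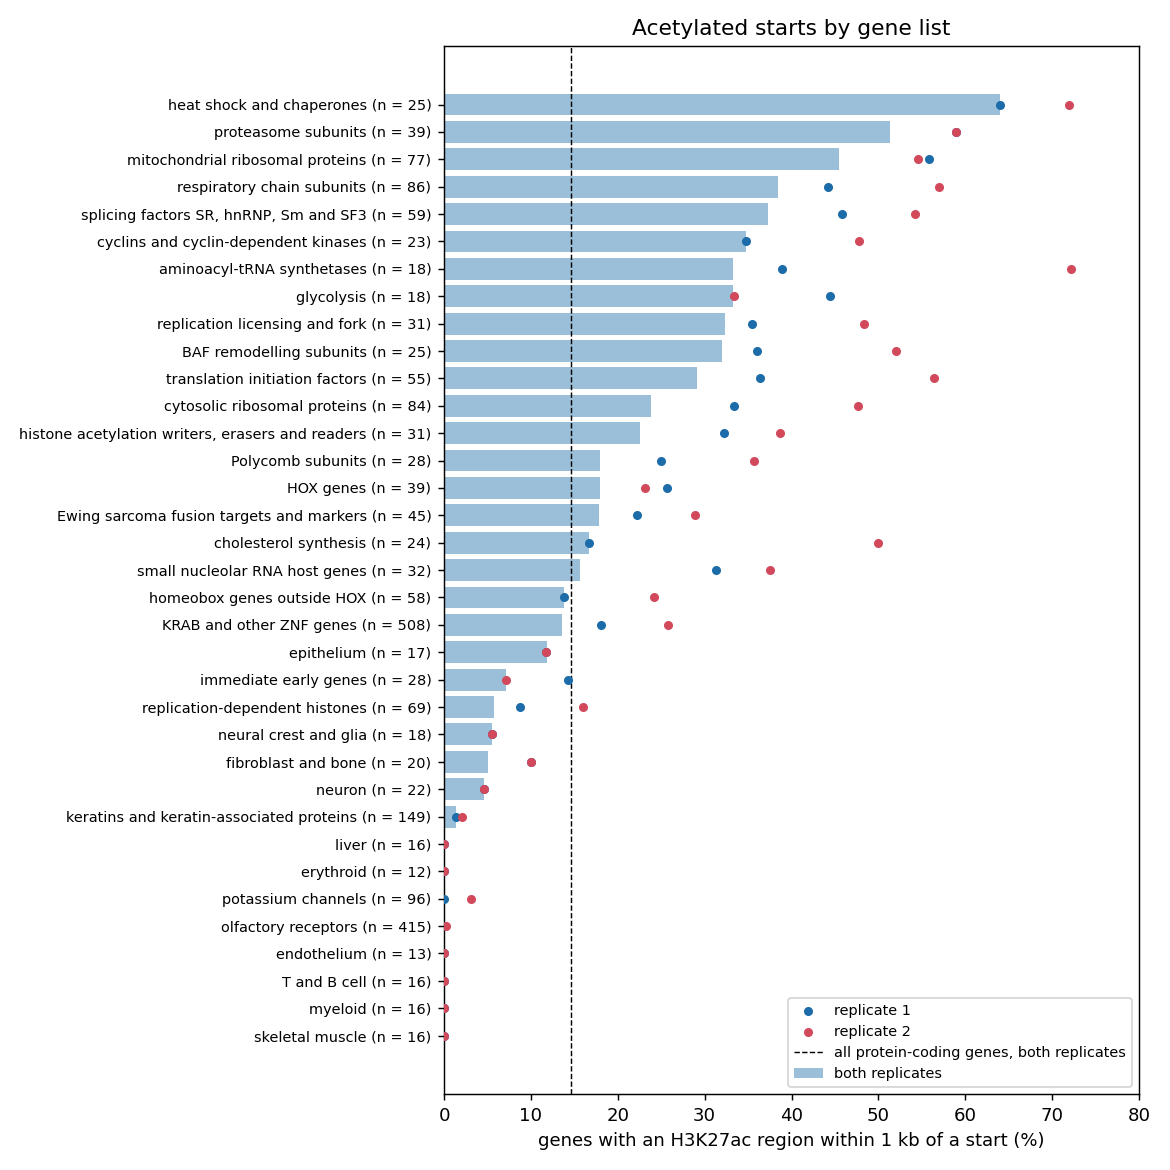
Percent of the genes of each list with an H3K27ac region within 1 kb of a start, in both replicates (bars), replicate 1 (blue) and replicate 2 (red), with the number of genes in parentheses and the 14.6% of all protein-coding genes as a dashed line. Chaperones (64.0%) and proteasome subunits (51.3%) stand highest and the tissue lists at or near 0.

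The genes with the most acetylated bases were long genes. The count took kept regions in the gene body and 5 kb either side. The median coding gene had 0 bases, the 90th percentile was 833, and 89 genes had over 5000. Pearson r between replicates was 0.93 and Spearman rho 0.73 over 4344 genes with any. Only regions found in both replicates were counted, so likeness is built in by that rule, and neighbouring genes share regions. Of the 20 leading genes 19 are over 100 kb long, with a median of 220 kb against 27.5 kb for all coding genes, and replicate 2 was higher in 18. A long gene has more room for regions, and the count was not divided by length.

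SHB, an SH2-domain adaptor of receptor signalling, held the most, 18383 and 21578 bases in 18 shared regions, every one of them distal. They lie on chromosome 9 and count equally for a readthrough gene without a symbol (ENSG00000255872) that spans SHB. Its largest region (chr9:38039005-38043124) had folds of 9.0 and 7.95 and no FLI1 library had a region there. FLI1 was absent from 9 of the 18 and present in all 4 libraries at 3.

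KIRREL1 held 17978 and 19732 bases in 13 regions, which cover 16.1% of its window. The region at its start (chr1:157993927-157996471) had folds of 8.28 and 8.20. A region 20439 bases from its start was the widest distal region of all (chr1:158014084-158020635, 5738 and 5979 bp), and FLI1 was there in all 4 libraries. At 9 of the 13 regions no FLI1 library had a region.

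IGF1R, the receptor for insulin-like growth factor 1, held 17254 and 18071 bases in 19 regions, with its start acetylated in replicate 2 only. A run of 13 regions covers 49.5 kb of one part of the gene (chr15:98854071-98903615). No single region was wide, the largest measuring 1711 and 1730 bp, and FLI1 was absent from 10 of the 19. Many moderate regions, and not a few wide ones, made up this count.

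LMNA had the densest acetylation of the 20, 22.2% of its window, with 14664 and 15327 bases in 9 regions. The widest (chr1:156119494-156126967) measured 5805 and 6252 bp at folds of 9.72 and 9.64 and lies at an internal start. FLI1 was in all 4 libraries at 5 of the 9 regions. ZMYND8 was the opposite of IGF1R, with 11742 and 11338 bases in 4 regions. The wider of the 2 at starts (chr20:47348117-47356548) measured 6969 and 7266 bp. ZEB2, a zinc finger homeobox repressor, had the region of largest mean width (chr2:144507021-144515881, 6950 and 8041 bp, summed over 4 and 3 list regions) and 9254 and 10175 bases in all.

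The leading genes ranged widely in FLI1 content. JAK1, the cytokine receptor kinase, had FLI1 in all 4 libraries at 8 of its 13 regions and in none at 1. SGIP1 had FLI1 in all 4 libraries at 4 of 6 regions, and CAV2 at 6 of 11. At RXRA, the retinoid X receptor (8886 and 10038 bases), 9 of 11 regions were without FLI1. Over all 6028 regions FLI1 was in all 4 libraries at 32.9% and in none at 31.9%.

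The other leading genes were ZFHX3 (values above), METTL24 (11852 and 15409), NFIX, a nuclear factor I transcription factor (11390 and 13994), EXT1, an enzyme of heparan sulphate synthesis (12354 and 12237), KIAA1217 (9904 and 11984) and CYRIA, a Rac1-binding protein (10589 and 10700). After them came SGIP1 (8379 and 12154), RERE (9545 and 10391), the caveolin CAV2 (8941 and 10833), the Arf regulator ASAP1 (9081 and 9914) and the guanine nucleotide exchange factor VAV2 (8592 and 9969). Replicates differed most at SGIP1, 1.45-fold. The start was acetylated in both replicates in 14 of the 20, and SHB, its readthrough gene, IGF1R, EXT1, CYRIA and VAV2 were the exceptions. The window of ZFHX3 also held 8015.5 bases of H3K27me3 regions, averaged over 2 libraries. That of the readthrough gene over SHB held 8893, and that of SHB itself 0.

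**Figure D4:**
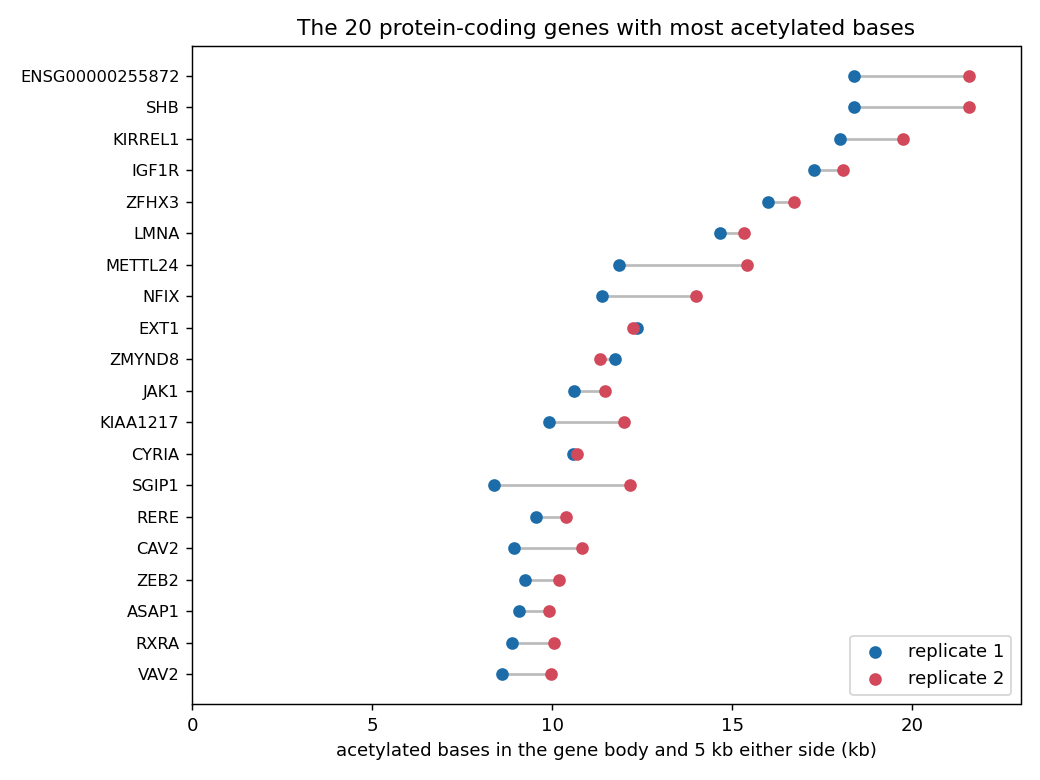
Acetylated bases (kb) in the gene body and 5 kb either side for the 20 protein-coding genes with the highest mean, in replicate 1 (blue) and replicate 2 (red), joined by grey lines. The replicates differ by at most 1.45-fold, at SGIP1, and SHB and its readthrough gene show the same 18383 and 21578 bases.

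Acetylation also gathered at non-coding loci. MIRLET7BHG, the host transcript of let-7 microRNAs on chromosome 22, held 17823 and 18333 bases, more than any coding gene except SHB with its readthrough gene and KIRREL1. LINC00513 held 12889 and 13705, PVT1 10522 and 11543, and MIR100HG, a host of miR-100 and let-7a, 7843 and 8492. Where shared regions at most 12.5 kb apart were joined, a distance chosen after the data were seen, 57 runs had 5 or more regions and together held 394 regions (6.54%). The run with the most bases (chr22:46038354-46084939) held 11 regions over 46.6 kb, with 25028 and 27311 bases, and touches no protein-coding gene. It includes regions of 7879 and 5893 bp (chr22:46061561-46069459) and 4774 and 6393 bp (chr22:46038354-46044746). The next (chr7:130886274-130953653) lies over LINC00513 with 17642 and 21143 bases. A run of 11 regions over HOXB13, PRAC1 and PRAC2 (chr17:48716178-48750212) had 13523 and 13353. Of all regions 56.3% stood alone.

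Among the widest regions, those in introns of HOOK1 (chr1:59847850-59853750, 4659 and 5751 bp) and CYRIA (chr2:16651672-16656580, 4900 and 4261 bp) were distal, and that of MGAT4C (chr12:86250169-86255553, 4651 and 5385 bp) was at a start. By fold the leading promoter regions were those of INO80D (10.8 and 10.6), EIF3B with SNX8 (9.38 and 11.9), NVL (11.2 and 9.62), LMNA (9.72 and 9.64) and HOXC6 with HOXC9 (9.0 and 9.59). After the 3 printed above, the leading distal regions were in an intron of ZZZ3 (chr1:77622394-77624891, 9.13 and 8.70) and 45942 bases from the start of NT5E (chr6:85401085-85403642, 8.43 and 9.19). At ZZZ3 and NT5E all 4 FLI1 libraries had a region.

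FLI1 lay over a larger share of promoter than of distal regions. FLI1 was in all 4 libraries at 41.3% of promoter regions and 28% of distal regions, and in none at 23.8% and 36.8%. Regions 1 to 5 kb from a start had FLI1 least often, 18.3% in all 4 and 45.2% in none. Read from the gene side, 2155 of 7521 genes with FLI1 at a start in all 4 libraries had an acetylated start (28.7%). Of the 12449 other genes, 764 did (6.14%). FLI1 and H3K27ac were each counted at any start of a gene and need not lie at the same start. Set A FLI1 and H3K27ac share IgG controls, while set B FLI1 does not. Of the repressive marks, regions of both H3K9me3 libraries touched 4 of the 6028 regions, all distal, and regions of both H3K27me3 libraries touched 0. The share of the genome in those repressive regions was not measured here, so these counts have no background to be read against.

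CG-rich promoters were acetylated more often. Promoter sequence was read from hg38 as the 300 bases from 250 before to 50 after the canonical start, for 19969 of 19970 coding genes. By quintiles of the CpG ratio, the observed number of CG pairs over that expected from base content, the acetylated share was 2.85%, 9.21%, 17.0%, 19.8% and 24.2%. The median ratio was 0.887 in acetylated promoters and 0.776 in all.

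Short motifs divided these promoters further. Each motif was searched on both strands as exact letters, and a match is a description of the sequence. The ETS site CCGGAAGT, which is bound by the family that FLI1 belongs to, was in 6.15% of all promoters, 11.4% of acetylated and 5.25% of other promoters. Of its 1229 holders 333 were acetylated (27.1%). Within quintiles of CpG ratio, holders were acetylated more often than non-holders in the upper 4 quintiles, from 22.3% against 8.80% in quintile 2 to 27.6% against 23.8% in quintile 5. The lowest quintile had 9 holders, of which 0 were acetylated.

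The YY1 core AAGATGGCG was in 2.84% of all promoters, and 179 of its 568 holders were acetylated (31.5%), the highest share among the 12 motifs searched. In the highest quintile of CpG ratio its holders stood at 38.3% against 23.4%. The NRF1 site GCGCATGC was in 4.25%, with 189 of 849 acetylated (22.3%). Its holders were below non-holders in quintile 2 (7.07% against 9.27%) and near them in quintile 4 (20.3% against 19.8%). Holders were above non-holders in quintile 3 (23.6% against 16.7%) and quintile 5 (27.6% against 23.9%). The lowest quintile had 6 holders, of which 1 was acetylated. The TATA box was in 9.73% of all promoters, 4.52% of acetylated and 10.6% of other promoters. By quintile of CpG ratio, TATA holders and others stood at 2.36% and 3.02%, 5.75% and 9.64%, 13.0% and 17.2%, 10.2% and 20.2%, and 24.1% and 24.2%. Holders were thus lower in the first 4 and level in the highest. The GC box GGGCGGG was in 53.2% of acetylated and 46.1% of other promoters, yet in the upper 3 quintiles its holders were acetylated less often, 20.9% against 29.4% in the highest. The CCAAT box was in 35.7% of acetylated and 36.1% of other promoters. The cAMP response element TGACGTCA was in 3.70% and 2.52%, the E-box CACGTG in 10.8% and 8.40%, the TEAD site in 10.1% and 11.6% and the RUNX site TGTGGT in 8.43% and 11%.

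Distal regions had other letters. In 300 bases round the replicate 1 summit, the AP-1 search pattern TGANTCA was in 332 of 2412 distal regions (13.8%). It was in 8.89% of windows of the same length 5 kb to either side. Replicate 2 summits gave 13.9%. The share was 12.1% where FLI1 was in all 4 libraries and 14.1% where it was in none. Promoter regions held a match in 6.24%. The pattern takes any base at N, and matches were not divided by that base. The CpG ratio at distal summits was 0.200, near that of the flanks (0.213), and 0.542 at promoter summits.

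GGAA repeats, 4 units in a row, were found more often within 2 kb of distal regions than in windows 20 kb away. They lay inside 11 of 2412 distal regions (0.456%) and within 2 kb of 188 (7.79%). The second count takes in the first and covers more sequence, so these counts do not compare inside with beside. The same windows moved 20 kb upstream held one in 2.61%. Of 2581 promoter regions 22 had a repeat within 2 kb (0.852%), against 2.40% in the moved windows.

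Acetylated starts were spread unequally over the chromosomes, and the IgG control level moved with them. Chromosome 1 had 495 of 2061 starts acetylated (24%; 28% in replicate 1 and 32.9% in replicate 2). Chromosomes 2 (20.7%) and 15 (20.6%) followed. Chromosomes 3 (7.31%), X (6.29%), 19 (6.23%), 18 (6.02%), 14 (5.84%), 13 (4.95%) and 4 (4.76%) stood lowest. The replicates separated the same 7 from the rest: at most 10.6% against at least 14.3% in replicate 1, and at most 19.0% against at least 20.5% in replicate 2. Shared regions per Mb ranged between 0.378 on chromosome 13 and 4.60 on chromosome 1.

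The IgG level, solved from FLI1 summits called against the same IgG libraries, was 1.79 and 1.73 scaled fragments per base on chromosome 1. On chromosomes 3, 4, 13, 14 and 18 it was 1.27 to 1.34. The lowest level solved at any summit of the set A FLI1 lists was 1.179 and 1.166, so these means lie near the lower end of the solved values. Chromosomes 19 (1.39 and 1.38) and X (1.43 and 1.38) had levels like chromosome 22 (1.40 and 1.38), which had 10.5% of starts acetylated. Over 23 chromosomes the acetylated share and this level had Pearson r of 0.79 and 0.81 for the IgG libraries of set A (Spearman rho 0.78 and 0.73) and 0.61 and 0.56 for those of set B. The points share their libraries and differ in gene density, so these are descriptions. For FLI1 at starts r was 0.32 and 0.44 with the set A level and 0.50 and 0.59 with the set B level. Chromosome 19 had the most FLI1-bound starts (45.0%) and among the fewest acetylated ones.

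The difference held among FLI1-bound starts alone. On chromosome 1, 376 of these were acetylated (45.2%), on chromosome 14 9.42% and on chromosome 19 10.5%. The r with IgG level in set A was 0.82 and 0.84. Within chromosomes it also varied. On chromosome 8 the share was 3.20% and 6.06% in the first 2 bins of 20 Mb, where the IgG level was 1.30 and 1.31, and 27.4% in the bin from 80 to 100 Mb, where it was 1.70. On chromosome 16, 39 of 179 starts were acetylated between 60 and 80 Mb (21.8%) and 0 of 102 between 80 and 90 Mb, where neither replicate had any, although FLI1 was at 29 of them (28.4%). The IgG level was 1.41 and 1.20 in these bins. Over 150 bins with at least 40 coding genes r was 0.66 with the set A level and 0.40 with the set B level. The part of the IgG level in these differences was not tested, and DNA copy number was not analysed here.

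**Figure D5:**
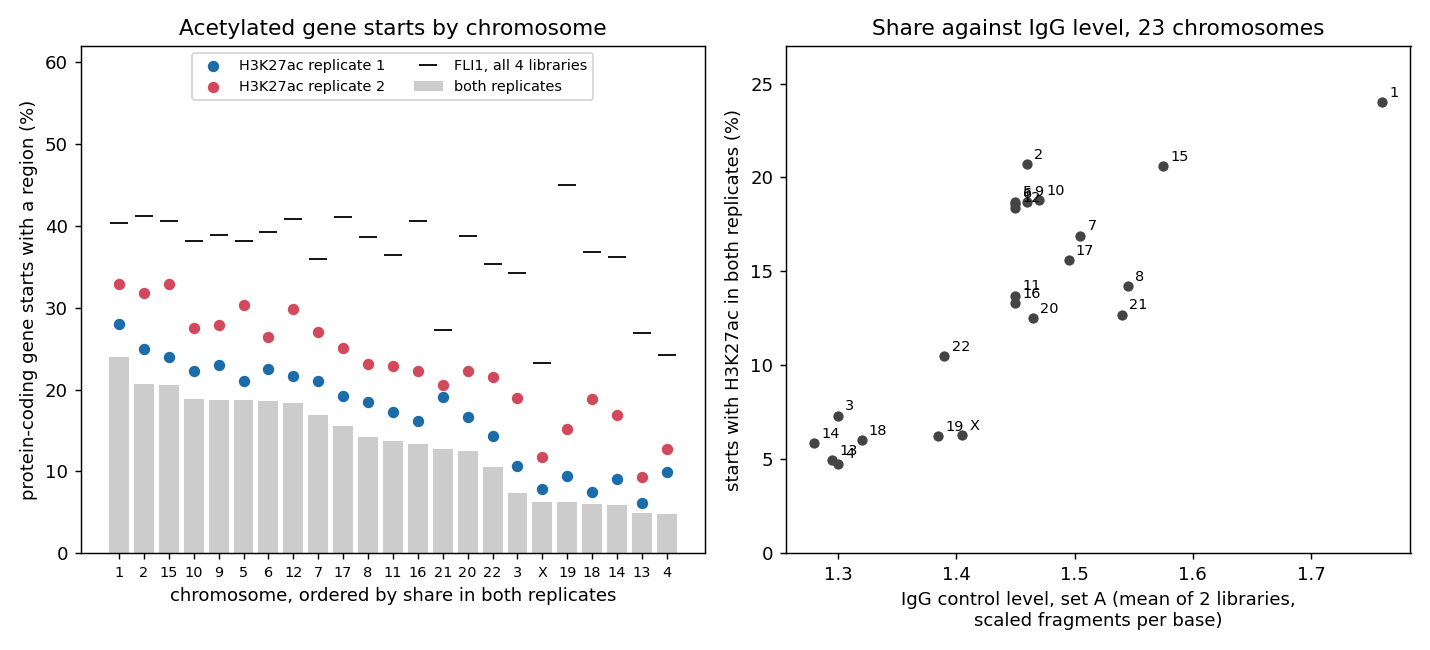
Left, percent of protein-coding starts with H3K27ac in both replicates (grey bars), replicate 1 (blue) and replicate 2 (red), and with FLI1 in all 4 libraries (dashes), by chromosome. Right, the share in both replicates against the mean IgG control level of set A, each point a chromosome, with chromosome 1 (24%) at the upper right and chromosomes 3, 4, 13, 14 and 18 at the lower left.

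Gene lists were set beside this spread by the mean share of acetylated starts on their members' own chromosomes. That mean was 16.9% for chaperones, 14.1% for proteasome subunits and 16% for mitochondrial ribosomal proteins, whose own shares were 64.0%, 51.3% and 45.5%. For zinc finger genes, of which many are on chromosome 19, it was 10.8%, beside their 13.6%. For histone genes it was 19.6%, beside 5.80%, and for Ewing sarcoma genes 12.5%, beside 17.8%.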

How the data were processed

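Peak lists of 2 H3K27ac CUT&RUN libraries and, for comparison, of 4 FLI1, 2 H3K9me3 and 2 H3K27me3 libraries were used. Per the submitters' processing notes, the tools were cutadapt 4.4, Bowtie2, Picard 2.17.11 and MACS2 2.1.1, on GRCh38 (hg38). Per the names inside the deposited lists, the authors called peaks library by library, with the IgG of equal set and number as control, with duplicates removed and replicates not pooled. The deposited fold is the authors' ratio of signal to IgG at the summit, and significance is deposited as −log10 p-value and −log10 q-value, with a lowest −log10 q of 2.00. Fold serves only to rank peaks within a list. Summit positions are deposited as the authors' offsets.

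Rows were merged within a list and compared by overlap of at least 1 base, with GENCODE 44 starts and hg38 sequence, in Python 3.11.15 with numpy 2.4.6, pandas 2.3.3, scipy 1.17.1, pysam 0.24.0 and matplotlib 3.10.9. Fragments and IgG levels were solved from fold and p under the caller's usual formulas, which the files do not state, for peaks with a −log10 p under 40. A level per chromosome is the mean of the lowest 90% of values. The solver and the overlap steps were tested on simulated data. With 2 libraries of 1 condition no test was made: the smallest exact two-sided p would be 0.5. The labels do not say whether the replicates came from separate cultures.

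The members and gene lists were chosen with earlier results of these data known. Named genes were the 20 with most acetylated bases, the 10 widest regions, the 5 promoter and 5 distal regions of highest fold, and up to 4 leading members of each list. Names beyond these in the lists, the runs and the non-coding loci were chosen after their values were seen. Alternatives covered the use of the replicates, the q threshold, the overlap, the distance from starts and the gene window. Some members that this rule names are not reported here. Reads and spike-in were not analysed here, and IgG levels come only from the solved values.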

Additional observations from a re-analysis of the deposited data

How the results depend on the processing

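The number of shared regions, 6028, was 10219 to 17366 with 1 replicate alone, 20517 for either replicate, 1102 with a −log10 q of at least 5 and 2937 with 50% reciprocal overlap. The promoter share of 42.8% was 32.2% to 37.0% with 1 replicate, 32.6% for either, 49.3% at the stricter q and 45.9% with reciprocal overlap, and 35.0% and 47.8% with windows of 500 bp and 2 kb. The distal share of 40% was 43.4% to 47.8% with 1 replicate, 47.9% for either, 35.3% at the stricter q, 37.3% with reciprocal overlap and 33.3% at 10 kb. Acetylated starts, 2919, were 3630 to 4820 with 1 replicate (4820 without replicate 1), 5531 for either, 679 at the stricter q and 1437 with reciprocal overlap; 500 bp, 2 kb and the gene's own 5′ end gave 2170, 3312 and 2256, within 1.5 times. The median width of 546 bp, the mean of both replicates, was 385 to 426 bp with 1 replicate's whole list, 406 bp for either, 933 bp at the stricter q and 624 bp with reciprocal overlap. Of the 20 genes with most acetylated bases, 17 stayed among the 20 with either replicate alone, 18 for either, 14 at the stricter q, 17 for the gene body only and 12 with reciprocal overlap. Counts thus depend on threshold and overlap by several fold. Promoter regions outnumbered distal regions among the shared regions of the main rule, the stricter q and reciprocal overlap. They did not in single lists, in either replicate or with the 500 bp window, whose 35.0% lay below the distal 40%. Kept regions of the main rule, counted in each list before joining, also had slightly fewer promoter than distal members. Replicate 1 had 2588 and 2601, and replicate 2 had 2683 and 2728. Depth, with a median of 15 to 17 fragments at a summit, limits what a missing region can show. No paired analysis was possible because the 2 H3K27ac libraries are of 1 condition.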
